A study of Homo sapiens with 12 samples.

Results

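The pro-apoptotic members of the BCL2 family were read in MDA-MB-468 and BT-549 cells, 2 established lines from breast cancers of basal-like type, after treatment with siRNA against PRKCD, the gene of protein kinase C δ (PKCδ), or with a control siRNA. Total RNA of 12 cultures was measured on Illumina HT-12 v4 BeadChips, with 3 arrays in each of 4 groups, namely MDA-MB-468 siControl, MDA-MB-468 siPRKCD, BT-549 siControl and BT-549 siPRKCD. The study silenced PKCδ to induce death of these cells and looked for genes that change with it. Its general transfection protocol gives 40 nM siRNA for 72 h. The study names a PKCδ siRNA but lists no sequence for it. The medium of the BT-549 cells also held insulin, so that line and medium cannot be told apart between the lines. The 10 genes were chosen by name as the effectors BAX, BAK1 and BOK and the BH3-only genes BID, BCL2L11, BBC3, BAD, BIK, BMF and PMAIP1. They have 22 of the 47323 probes of the array. Of these, 17 probes of 9 genes were detected on at least 3 arrays, where detected means a detection p under 0.01, and were among the 19439 probes tested. Below background means not detected by this cut, so such a probe may still hold weak signal. Values are log2 signals after quantile normalization, differences are differences of these log2 signals, and ± gives the SD of 3 arrays.

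The family decides whether the mitochondrial outer membrane stays intact. BAX and BAK are pores in waiting: once activated they form oligomers that open the membrane and release cytochrome c. BH3-only proteins sense stress upstream of them. Some, such as BIM (BCL2L11), tBID (cleaved BID) and PUMA (BBC3), can activate BAX and BAK directly, while others, such as BAD, BIK and NOXA (PMAIP1), act mainly by occupying the anti-apoptotic relatives BCL-2, BCL-XL, BCL-W and MCL-1. Much of this control works through cleavage, phosphorylation and protein turnover, which an mRNA array does not read.

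The regulatory sequence is shown beside some of the genes that moved. PMAIP1 was lower with PKCδ siRNA in both lines, BCL2L11 and BAK1 were higher in MDA-MB-468 cells, and BAX was higher in BT-549 cells. For these genes the 250 bases before an annotated start are printed. They are the RefSeq windows of GRCh38.p14 at chr18:59899746-59899995 on the plus strand for PMAIP1, chr2:111120664-111120913 on the plus strand for BCL2L11, chr6:33580277-33580526 on the minus strand for BAK1 and chr19:48954625-48954874 on the plus strand for BAX, printed 5′ to 3′ in the direction of the gene. Capitals mark a CRE half-site in PMAIP1, a forkhead site in BCL2L11, GC boxes in BAK1 and E-boxes in BAX. Other matches are not in capitals, among them GC boxes in PMAIP1, BCL2L11 and BAX. BAD, which was called higher in MDA-MB-468 cells and also has a CRE half-site, is not printed.
PMAIP1: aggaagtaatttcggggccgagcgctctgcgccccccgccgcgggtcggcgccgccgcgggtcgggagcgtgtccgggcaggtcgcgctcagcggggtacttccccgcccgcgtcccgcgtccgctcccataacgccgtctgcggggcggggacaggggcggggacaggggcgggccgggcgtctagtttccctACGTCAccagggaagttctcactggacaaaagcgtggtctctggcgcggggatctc
BCL2L11: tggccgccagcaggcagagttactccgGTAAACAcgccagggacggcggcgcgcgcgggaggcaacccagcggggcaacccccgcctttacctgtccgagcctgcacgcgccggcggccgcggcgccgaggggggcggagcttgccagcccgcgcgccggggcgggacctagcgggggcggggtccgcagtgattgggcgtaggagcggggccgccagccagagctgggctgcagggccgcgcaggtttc
BAK1: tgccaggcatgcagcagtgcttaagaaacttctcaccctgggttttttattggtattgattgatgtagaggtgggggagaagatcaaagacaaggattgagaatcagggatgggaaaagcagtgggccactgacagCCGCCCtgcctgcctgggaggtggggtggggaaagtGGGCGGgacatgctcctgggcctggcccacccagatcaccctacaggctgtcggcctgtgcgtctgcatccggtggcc
BAX: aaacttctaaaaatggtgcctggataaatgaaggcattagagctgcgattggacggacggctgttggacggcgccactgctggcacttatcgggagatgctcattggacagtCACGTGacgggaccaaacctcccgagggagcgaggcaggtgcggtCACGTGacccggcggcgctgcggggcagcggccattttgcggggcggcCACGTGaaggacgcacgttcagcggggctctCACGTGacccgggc

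The motifs were searched on both strands, and distances run from the first printed base of a match to the start. The CRE half-site (TGACGT), which bZIP factors such as ATF4 and JUN can bind, lies 56 bases before the start of PMAIP1. Matches to it were found in 7.1% of the 35116 windows of this length, and among the 9 members with a window in PMAIP1 and BAD. The forkhead site (GTAAACA) of BCL2L11, 223 bases before the start, is of the kind that FOXO factors read. It was found in 2.98% of all windows and in 1 of the 9 members. The E-box (CACGTG) occurs 4 times before BAX, at 138, 93, 45 and 14 bases, and was found in 6.34% of windows and in BAX, BBC3 and BID. The GC box (GGGCGG), the site of SP1-like factors, was found in 42.6% of windows and in 8 of the 9 members, with matches 114 and 78 bases before the start of BAK1. An AP-1 site (TGANTCA) was found in BBC3 and in 6.57% of windows, an E2F site (TTTNGCGC) in no member and in 1.51% of windows, and an NF-kB site in BMF and in 9.96% of windows. Some members have several windows. Counted by window, as the shares over all windows are, the 15 member windows held the GC box in 12, the E-box in 4 and the CRE half-site in 3. The AP-1, forkhead and NF-kB sites were in 1 each. No match in capitals overlaps a match of another motif. These are letters in a window, not bound sites. BIK is named here without a window.

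PRKCD itself was read first, by its 1 probe with signal (ILMN_1801105). In MDA-MB-468 cells the siControl arrays read 9.15, 9.13 and 8.82 and the siPRKCD arrays 7.29, 7.20 and 7.47. In BT-549 cells they read 7.71, 7.73 and 7.76 against 6.89, 6.67 and 7.01, and only 1 of the 3 siPRKCD arrays was above background. The groups did not overlap in either line. PRKCD fell by 1.72 in MDA-MB-468 cells (SE 0.11, limma adjusted p = 2e-07) and fell by 0.87 in BT-549 cells (SE 0.11, adjusted p = 9.8e-05). BT-549 cells started lower, and with 2 of their 3 siPRKCD arrays at background the size of their fall is limited by that background, so the falls of the lines are not compared. A second PRKCD probe was below background on every array.

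The labelled lines fitted their markers in part. Of 8 epithelial genes, 7 (CDH1, EPCAM, KRT8, KRT18, KRT5, ESRP1 and CLDN7) were detected on all 6 MDA-MB-468 arrays and CLDN4 on some, while in BT-549 cells CDH1 was detected on all 6 and 6 genes on none. Of 7 mesenchymal genes, BT-549 cells had 6 and lacked FN1, and MDA-MB-468 cells had VIM and CDH2. ERBB2 and EGFR were detected in both lines, PGR on no array and ESR1 on 1. Of 3 leukocyte genes PTPRC and CD3E were on no array and CD79A was near background on 6, and none of 3 endothelial genes was detected. Arrays correlated at 0.987 to 0.997 within a group and at 0.847 to 0.983 between groups. The number of detected probes was 16036 to 17604 and 16562 to 17724 on the MDA-MB-468 siControl and siPRKCD arrays, and 16640 to 17263 and 15616 to 16595 on the BT-549 siControl and siPRKCD arrays. Every BT-549 siPRKCD array thus had fewer detected probes than every BT-549 siControl array. Its part in the BT-549 results was not tested.

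In MDA-MB-468 cells PKCδ siRNA moved members of the family in both directions. NOXA (PMAIP1) was 2.07-fold lower and BIK 1.35-fold lower, while the effector BAK1 was 1.5-fold higher, BIM (BCL2L11) 1.26-fold higher and BAD 1.21-fold higher. These 5 of the 9 measured genes passed the test by their leading probe, the kept probe with the highest mean, with 3 higher and 2 lower. Over all 11459 genes 24.8% were called in this comparison, 11.7% higher and 13.1% lower. Counted by probe, 7 of 17 (41.2%) were called, 4 higher and 3 lower, against 21.6% of all probes tested, 10.7% higher and 11% lower. The median difference of the 9 leading probes was −0.01, and that of all genes was 0.00. For 9 probes, 5 above and 4 below, the siPRKCD arrays did not overlap the siControl arrays, which held for 35.6% of all probes, 18.7% above and 17% below.

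**Figure D1:**
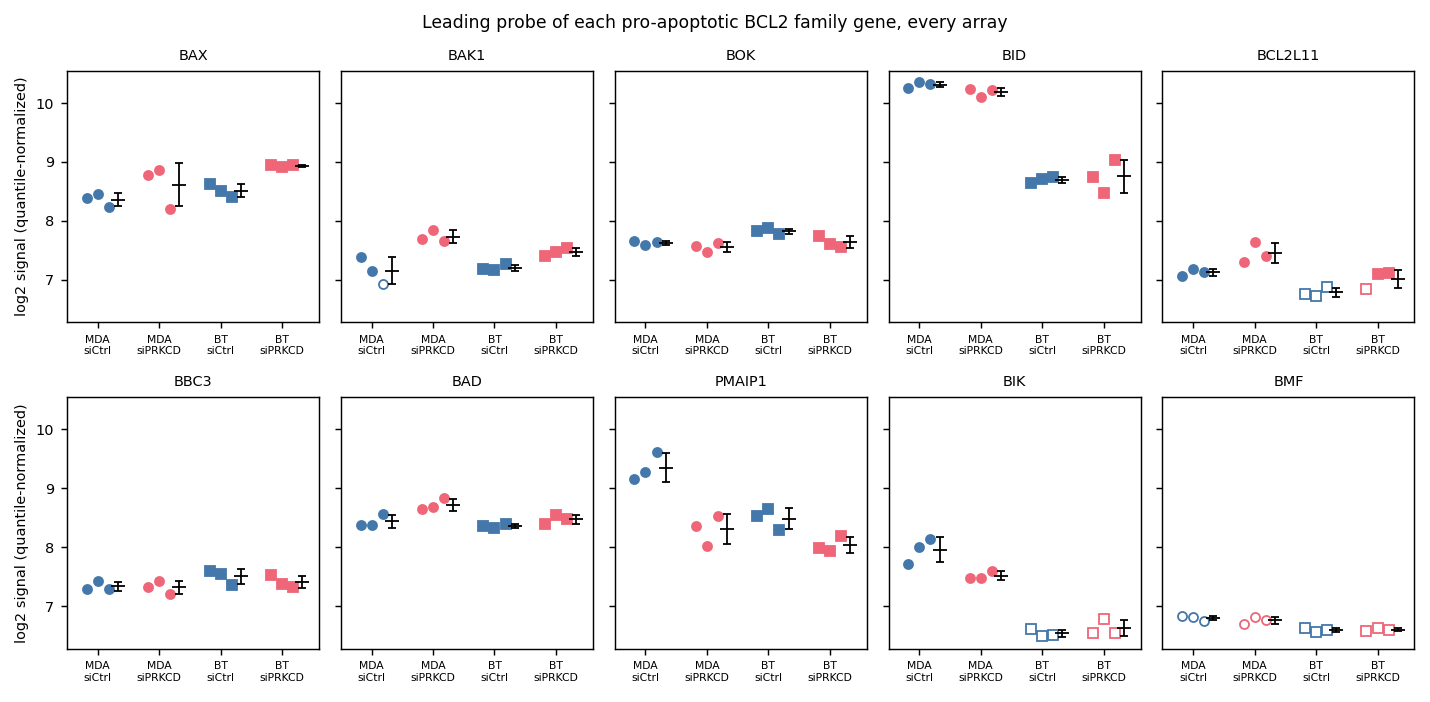
Log2 signal (vertical axis, quantile-normalized) of the leading probe of each of the 10 genes on all 12 arrays, with circles for MDA-MB-468 (MDA), squares for BT-549 (BT), blue for siControl, red for siPRKCD, filled symbols where the probe was detected and open symbols where it was not. Bars give the mean ± SD of 3 arrays. PMAIP1 is lower with PKCδ siRNA on every array of both lines, BID is far lower on all BT-549 arrays, and BIK and BMF stay at background in BT-549 cells.

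Among the effectors, BAK1 had the clearest change. BAK1, a resident of the mitochondrial outer membrane, read 7.38, 7.15 and 6.92 on the siControl arrays of MDA-MB-468 cells, the last not above background, and 7.69, 7.85 and 7.65 on the siPRKCD arrays. Every siPRKCD array was higher than every siControl array. The difference was 0.58 (SE 0.11, limma adjusted p = 0.0013). With neqc, which also subtracts background, it was 1.18.

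BAX is held in the cytosol until activated. Its leading probe (ILMN_2321064) read 8.38, 8.46 and 8.24 on the siControl arrays and 8.77, 8.87 and 8.20 on the siPRKCD arrays of MDA-MB-468 cells. Replicates 1 and 2 of siPRKCD were high and replicate 3 was the lowest of the 6 arrays. BAX did not pass the test, with a difference of 0.25 and a 95% confidence interval from −0.04 to 0.55 (limma adjusted p = 0.23). Over the 12 fits without 1 array the difference ran from 0.12 to 0.46 (limma adjusted p from 0.005 to 0.64). The call changed in 1 of them, without MDA-MB-468 siPRKCD replicate 3 (0.46, adjusted p = 0.005). A second BAX probe was below background on all siControl arrays and detected on 1 siPRKCD array, and the last was detected on 2 of the 12 arrays and not tested.

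BOK, a relative of BAX and BAK that is held in check mainly by degradation of its protein, read 7.65, 7.59 and 7.64 on the siControl arrays and 7.58, 7.47 and 7.63 on the siPRKCD arrays of MDA-MB-468 cells. The groups overlapped. The difference was −0.07, with a 95% confidence interval from −0.25 to 0.11.

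Of the activators, BCL2L11 rose by 2 of its 3 probes. BIM binds BAX, BAK and all the main anti-apoptotic proteins. Its leading probe (ILMN_2359627) read 7.06, 7.18 and 7.13 on the siControl arrays and 7.30, 7.64 and 7.41 on the siPRKCD arrays, and its second probe (ILMN_1774997) read 6.86, 6.95 and 6.99 against 7.38, 7.30 and 7.55. Both probes were higher on every siPRKCD array. The differences were 0.33 (SE 0.10, limma adjusted p = 0.035) and 0.47 (SE 0.11, 1.39-fold, adjusted p = 0.0052). With neqc they were 0.71 and 1.15. The remaining probe, close to background, differed by 0.14 (adjusted p = 0.31). The call of the leading probe was lost without siControl replicate 1, 2 or 3 (adjusted p = 0.11, 0.059 and 0.066) or siPRKCD replicate 2 (0.16), and when only the MDA-MB-468 arrays were fitted (0.060). That of the second probe was kept in each of these fits.

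BID and BBC3 gave no call. BID, which caspase-8 cuts to carry a death receptor signal to mitochondria, read 10.26, 10.35 and 10.32 on the siControl arrays and 10.23, 10.11 and 10.22 on the siPRKCD arrays by its leading probe (ILMN_1763386). Every siPRKCD array was slightly lower, with a difference of −0.12 and a 95% confidence interval from −0.37 to 0.13. BBC3, the gene of PUMA, read 7.29, 7.42 and 7.29 against 7.32, 7.43 and 7.21. The groups overlapped, and the interval of the difference ran from −0.21 to 0.20.

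The sensitizers moved apart. NOXA, which binds MCL-1 and promotes its degradation, had the largest difference of the 17 probes. PMAIP1 read 9.16, 9.27 and 9.62 on the siControl arrays and 8.36, 8.02 and 8.52 on the siPRKCD arrays by its leading probe (ILMN_2098446). Its second probe (ILMN_1689525) read 7.64, 7.47 and 8.04 against 7.04, 7.0 and 7.19. On both probes all siPRKCD arrays lay below all siControl arrays. PMAIP1 fell by 1.05 (SE 0.14, limma adjusted p = 0.00014) and by 0.64 (SE 0.13, 1.56-fold, adjusted p = 0.0021), and with neqc the second probe fell by 1.29.

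BIK, a BH3-only protein that sits mostly in the endoplasmic reticulum, read 7.72, 8.0 and 8.14 on the siControl arrays and 7.47, 7.47 and 7.60 on the siPRKCD arrays. The groups did not overlap, and BIK fell by 0.44 (SE 0.11, limma adjusted p = 0.010). With neqc BIK fell by 0.71. BAD, which 14-3-3 proteins hold in the cytosol when it is phosphorylated, read 8.37, 8.37 and 8.57 against 8.64, 8.68 and 8.83 by its leading probe (ILMN_1738652). Every siPRKCD array was higher, by a mean of 0.28 (SE 0.09, adjusted p = 0.039). The other BAD probes differed by 0.05 and 0.13 and were not called. The BAD call was lost under median centring (adjusted p = 0.20), neqc (0.078), an intensity trend (0.074), with only the MDA-MB-468 arrays (0.083), and without siControl replicate 1 or 2 (0.13 each), siPRKCD replicate 2 or 3 (0.069 and 0.13) or BT-549 siControl replicate 1 or 2 (0.051 and 0.054). BMF, which sits on the cytoskeleton through dynein light chain, was detected on no array by any of its 4 probes, at 6.48 to 6.83.

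In BT-549 cells fewer members passed the test. BAX was 1.35-fold higher and PMAIP1 1.36-fold lower with PKCδ siRNA, and the other 7 of the 9 measured genes were not called. By probe, 2 of 17 (11.8%) were called, 1 in each direction, against 21.5% of all probes, 10.1% higher and 11.4% lower. Under median centring 0 of the 17 were called, and of all probes 566 were called higher and 1784 lower against 1973 and 2211 after quantile normalization. With no filter on dim probes 0 member probes were called. By gene 2 of 9 were called against 25% of all genes, 10.9% higher and 14.2% lower. The median difference of the 9 leading probes was 0.09, and that of all genes was −0.01. For 4 of the 17 probes, 2 above and 2 below, the groups did not overlap. Over all probes this held for 37.8%, 19% above and 18.8% below.

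BAX read 8.62, 8.51 and 8.40 on the siControl arrays of BT-549 cells and 8.94, 8.92 and 8.95 on the siPRKCD arrays by its leading probe. The siPRKCD arrays were all higher and close to each other, and the difference was 0.43 (SE 0.14, limma adjusted p = 0.039). The second BAX probe, at 6.98, 7.12 and 7.14 against 7.01, 7.39 and 7.14, overlapped and differed by 0.10 (adjusted p = 0.56). The BAX call was lost under median centring (adjusted p = 0.18), neqc (0.072) and with no filter on dim probes (0.077). It was also lost without any 1 of the 6 BT-549 arrays, namely siControl replicate 1, 2 or 3 (0.057, 0.097 and 0.12) or siPRKCD replicate 1, 2 or 3 (0.082, 0.079 and 0.090).

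BAK1 read 7.19, 7.16 and 7.26 on the siControl arrays and 7.41, 7.47 and 7.54 on the siPRKCD arrays of BT-549 cells. All siPRKCD arrays were higher, with a difference of 0.27 (SE 0.11) that missed the threshold (limma adjusted p = 0.087). It passed with only the BT-549 arrays (0.042) and without MDA-MB-468 siControl replicate 3 (0.042). It also passed with the replicate number as a block (0.047), although same-numbered BT-549 arrays did not behave as pairs. BOK lay lower on all siPRKCD arrays, at 7.75, 7.60 and 7.56 against 7.82, 7.87 and 7.78, and was not called (−0.18, adjusted p = 0.14).

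PMAIP1 read 8.52, 8.64 and 8.29 on the siControl arrays and 7.99, 7.93 and 8.19 on the siPRKCD arrays of BT-549 cells by its leading probe. The siPRKCD arrays were all lower, and PMAIP1 fell by 0.45 (SE 0.14, limma adjusted p = 0.039). The second probe, at 7.08, 7.28 and 7.26 against 7.20, 7.32 and 7.14, did not follow. Its difference was 0.02, with a 95% confidence interval from −0.25 to 0.28, and it lay near background. The call of the leading probe was lost under median centring (adjusted p = 0.078) and with no filter (0.083). It was also lost without BT-549 siControl replicate 1 or 2 (0.11 and 0.16), BT-549 siPRKCD replicate 1 or 2 (0.097 and 0.12), MDA-MB-468 siPRKCD replicate 1 (0.051) or MDA-MB-468 siControl replicate 2 (0.050). PMAIP1 was the 1 member called in both lines by its leading probe. Of all genes 5.34% were called lower and 4.16% higher in both lines.

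The remaining BH3-only genes were not called in BT-549 cells. BCL2L11 was below background on all 3 siControl arrays by its leading probe, at 6.76, 6.73 and 6.87, and above it on siPRKCD replicates 2 and 3, at 6.84, 7.10 and 7.11. The groups overlapped, since siPRKCD replicate 1 was below siControl replicate 3, and the probe was not called (limma adjusted p = 0.13). With neqc the difference of 0.23 became 0.70 (adjusted p = 0.043). BID read 8.64, 8.71 and 8.74 against 8.75, 8.47 and 9.04, BBC3 7.60, 7.55 and 7.36 against 7.52, 7.38 and 7.32, and BAD 8.36, 8.33 and 8.40 against 8.39, 8.55 and 8.48. In these 3 genes the groups overlapped. BIK was below background on all 6 BT-549 arrays, at 6.49 to 6.78, so its difference cannot be read.

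**Figure D2:**
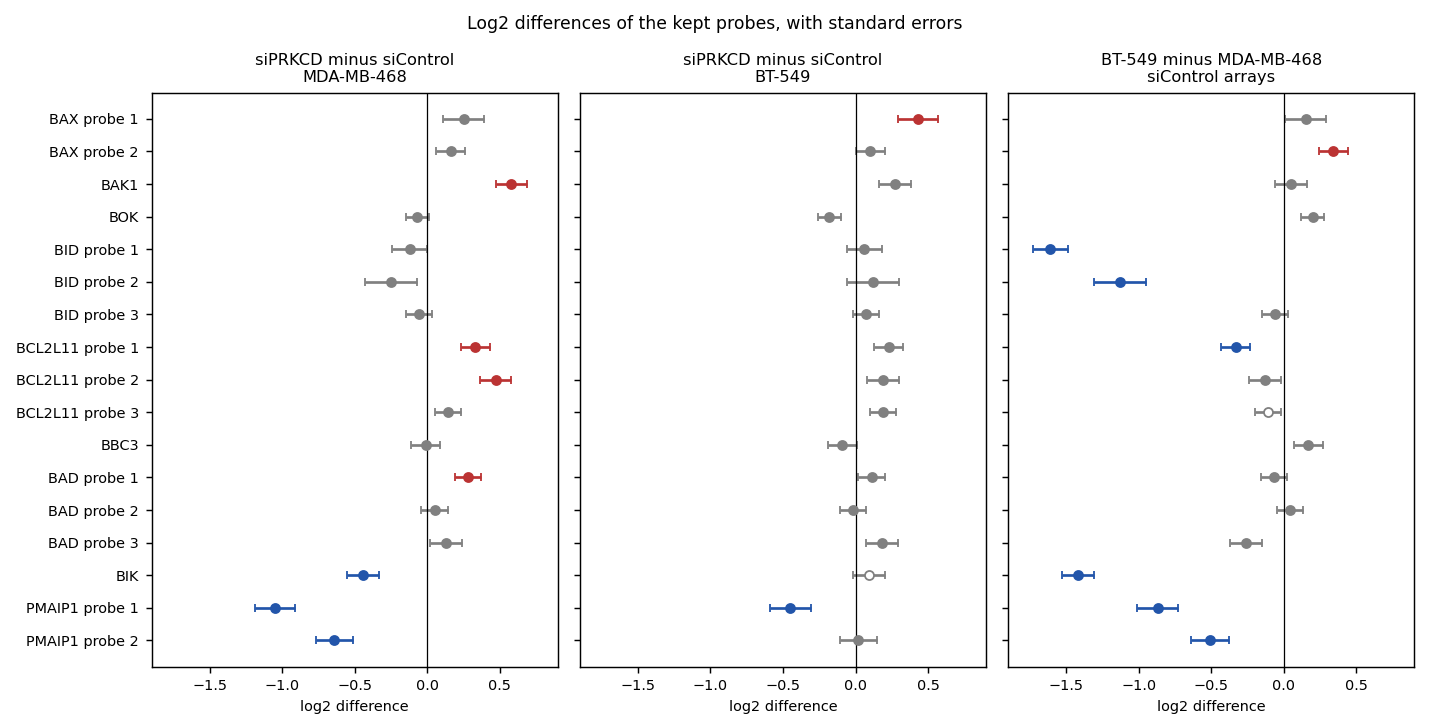
Log2 difference (horizontal axis) with its standard error for the 17 kept probes, in rows by gene, for PKCδ siRNA in MDA-MB-468 cells, for PKCδ siRNA in BT-549 cells and between the siControl arrays of the lines. Red and blue mark probes called higher and lower, grey marks probes not called, and open symbols mark probes below background in both groups. In MDA-MB-468 cells 4 probes are red and 3 blue, and in BT-549 cells 1 is red and 1 blue.

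The difference of the siRNA effect between the lines was tested as an interaction. Of 17 probes 1 was called (5.88%), against 7.6% of all probes, 3.66% higher and 3.94% lower. It was the second PMAIP1 probe, whose fall of 0.64 in MDA-MB-468 cells stood against 0.02 in BT-549 cells, with a difference of 0.66 (SE 0.18, limma adjusted p = 0.036). This call was lost under median centring (adjusted p = 0.11), with no filter on dim probes (0.061) and in 9 of the 12 fits without 1 array. In BT-549 cells the second probe started near background, at a siControl mean of 7.21, which limits how far it could fall. The leading PMAIP1 probe pointed the same way (0.60, adjusted p = 0.092), and so did BIK (0.52, adjusted p = 0.053), which was below background in BT-549 cells. With the replicate number as a block 3 of the 17 probes were called, which added BIK (0.023) and the leading PMAIP1 probe (0.027). This block also joined the same-numbered BT-549 arrays, which did not behave as pairs. None of the 9 leading probes was called in the fit without the block, against 9.29% of genes called, 4.49% higher and 4.8% lower. In that limma fit 2 of the 9 had an unadjusted p under 0.05, against 2787 of all 11459 genes. For BAK1 the difference was −0.31 (adjusted p = 0.27) and for BAX 0.18 (0.69), so that calls of BAK1 in MDA-MB-468 cells and of BAX in BT-549 cells are not shown to differ between the lines.

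**Figure D3:**
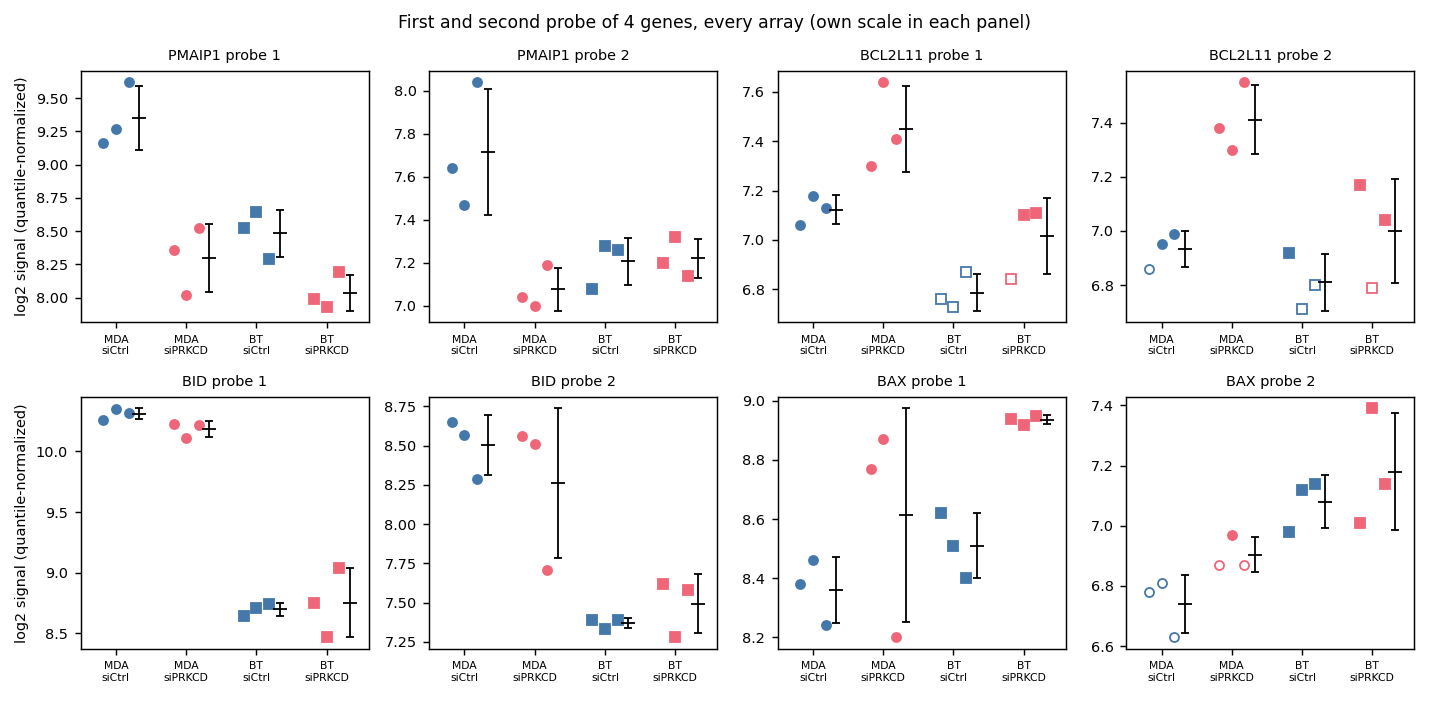
Log2 signal (vertical axis, own scale in each panel) of the first and second probe of PMAIP1, BCL2L11, BID and BAX on all 12 arrays, with symbols and colours for line, siRNA and detection as in the plot of the leading probes, and bars for mean ± SD of 3 arrays. Both PMAIP1 probes drop with PKCδ siRNA in MDA-MB-468 cells, and only the first does in BT-549 cells. Both BCL2L11 probes rise in MDA-MB-468 cells.

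Between the siControl arrays of the lines, several BH3-only genes were lower in BT-549 cells and no effector was called by its leading probe. BID was 3.06-fold lower in BT-549 cells, PMAIP1 1.82-fold lower, BIK at least 2.06-fold lower and BCL2L11 at least 1.16-fold lower by its leading probe. Where a group was below background, the bound sets the mean of the brighter group against, on each dim array, the higher of the probe's own signal and the lowest signal still detected. By leading probe 4 of 9 genes were called, all lower, and all 4 were among the 6 measured BH3-only genes. Of all genes 61.5% were called, 32.1% higher and 29.4% lower, so calls were common between the lines. By probe 7 of 17 (41.2%) were called, 1 higher and 6 lower, against 55.9% of all probes, 28.9% higher and 27.1% lower. For 9 of the 17 probes, 2 above and 7 below, the groups did not overlap. Over all probes this held for 63.9%, 33% above and 30.8% below. In bulk RNA fewer cells with a transcript and less of it per cell cannot be told apart.

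BID read 10.26 to 10.35 on the MDA-MB-468 siControl arrays and 8.64 to 8.74 on the BT-549 siControl arrays, with a difference of −1.61 (SE 0.12, limma adjusted p = 1.1e-08). Its second probe (ILMN_2372413) read 8.65, 8.57 and 8.29 against 7.39, 7.33 and 7.39, with a difference of −1.13 (SE 0.18, 2.20-fold, adjusted p = 6.5e-05). The remaining probe, detected on 4 of the 12 arrays, differed by −0.06. The siPRKCD arrays were apart as well, at 10.11 to 10.23 against 8.47 to 9.04 by the leading probe.

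PMAIP1 was lower in BT-549 siControl cells by both probes, with differences of −0.87 (SE 0.14, limma adjusted p = 1e-04) and −0.51 (SE 0.13, adjusted p = 0.0028). With PKCδ siRNA the leading probe stood at 8.30 ± 0.25 in MDA-MB-468 cells and at 8.04 ± 0.13 in BT-549 cells (SD, n = 3). The siPRKCD level of MDA-MB-468 cells was thus close to the siControl level of BT-549 cells, 8.48 ± 0.18. BIK, at 7.72 to 8.14 on the MDA-MB-468 siControl arrays, was below background on every BT-549 array, so that only the bound can be read (limma adjusted p = 2.6e-08). The fitted difference was −1.42 and, with neqc, −3.04. BCL2L11 was below background on the BT-549 siControl arrays by its leading probe (adjusted p = 0.013), with fitted differences of −0.33 and, with neqc, −0.99. Its other probes were not called, at −0.13 (adjusted p = 0.34) and −0.11 (adjusted p = 0.32).

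Among the effectors, BAX and BAK1 differed by 0.15 (limma adjusted p = 0.39) and 0.05 (adjusted p = 0.70) between the siControl arrays by their leading probes, and the groups overlapped. The second BAX probe (ILMN_1683300) was below background on the MDA-MB-468 siControl arrays, at 6.78, 6.81 and 6.63, and detected on those of BT-549 cells, at 6.98, 7.12 and 7.14. It was at least 1.12-fold higher in BT-549 cells (0.34, adjusted p = 0.0097). BOK lay higher on all BT-549 siControl arrays, at 7.78 to 7.87 against 7.59 to 7.65, and missed the threshold (0.20, adjusted p = 0.060). BBC3 and BAD did not pass by their leading probes, at 0.17 and −0.07.

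The anti-apoptotic relatives, which the BH3-only proteins occupy, also moved in both directions. Of 6 genes 4 were measured, since BCL2A1 and BCL2L10 were not kept. In MDA-MB-468 cells 1 was higher and 2 were lower, with a median of −0.22, while 24.8% of all genes were called. BCL2L1, the gene of BCL-XL, fell by 0.91 (SE 0.16, limma adjusted p = 0.0011), MCL1 fell by 0.72 (SE 0.12, adjusted p = 0.00072), BCL2 was higher by 0.28 (adjusted p = 0.046) and BCL2L2, the gene of BCL-W, stood at 0.28 (adjusted p = 0.14). In BT-549 cells 1 was higher and 1 lower, with a median of −0.04, while 25% of all genes were called. There BCL2L1 fell by 0.60 (adjusted p = 0.017), BCL2L2 was higher by 0.64 (adjusted p = 0.0021), MCL1 stood at −0.33 (adjusted p = 0.072) and BCL2 at 0.25 (adjusted p = 0.076). None of the 4 was called in the limma interaction, where 1 had an unadjusted p under 0.05, against 2787 of all 11459 genes.

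Of 8 other BCL2-related genes measured, 2 were called in each line, a share close to that of all genes (24.8% and 25%). BCL2L12 was higher in both lines (0.42, limma adjusted p = 0.042, and 0.57, adjusted p = 0.0086), BNIP3L, a mitophagy receptor with a BH3-like stretch, was lower in MDA-MB-468 cells (−0.29, adjusted p = 0.041), and BNIP2 was higher in BT-549 cells (0.30, adjusted p = 0.019). HRK, a BH3-only gene best known from neurons, was below background in BT-549 cells and stood at 0.11 in MDA-MB-468 cells (adjusted p = 0.39).

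Of 13 measured partners that place, hold or free members, 2 were higher and 4 lower in MDA-MB-468 cells. In BT-549 cells 2 were lower. The medians were −0.30 and −0.08, and 24.8% and 25% of all genes were called in these lines. The lower ones were 14-3-3 genes, whose proteins hold phosphorylated BAD. YWHAE fell by 0.65 (limma adjusted p = 0.003) and by 0.59 (adjusted p = 0.0056) in MDA-MB-468 and BT-549 cells, and YWHAB fell by 0.40 (adjusted p = 0.0018) and by 0.47 (adjusted p = 0.00062). YWHAH and SFN were lower in MDA-MB-468 cells (−0.37 and −0.43), and SFN was below background in BT-549 cells. YWHAZ and YWHAQ were called in neither line. CASP8, the protease that cuts BID, was higher in MDA-MB-468 cells (0.56, adjusted p = 0.0034) and stood at 0.13 in BT-549 cells. PPP3CB, a calcineurin subunit that can dephosphorylate BAD, was higher in MDA-MB-468 cells (0.61, adjusted p = 0.0011) and stood at 0.02 in BT-549 cells. Its effect differed between the lines (−0.59, adjusted p = 0.031). So did that of MTCH2 (−0.5, adjusted p = 0.047), which was called in neither line (0.28 and −0.23). In the interaction 2 of the 13 partners were called, against 9.29% of all genes.

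Of 7 measured genes for turnover of the members and of MCL-1, 1 was higher and 1 lower in MDA-MB-468 cells. In BT-549 cells 2 were lower. These counts are close to the shares of all genes called, 24.8% and 25%. MARCHF5, a ubiquitin ligase of the mitochondrial outer membrane, was lower in both lines (−0.86, limma adjusted p = 0.00021, and −0.38, adjusted p = 0.042). CUL5, a cullin of ubiquitin ligases, was higher in MDA-MB-468 cells (0.52, adjusted p = 0.0066) and stood at 0.35 in BT-549 cells (adjusted p = 0.053). USP9X, a deubiquitinase of MCL-1, was lower in BT-549 cells (−0.53, adjusted p = 0.00048) and stood at −0.10 in MDA-MB-468 cells, and the effects differed (−0.43, adjusted p = 0.042).

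Of 9 measured transcription factors known to act on these genes, none was called in MDA-MB-468 cells by limma at an adjusted p under 0.05, and 0 had an unadjusted p under 0.05. Of all 11459 genes 24.8% were called there, and 4197 had an unadjusted p under 0.05. In BT-549 cells 1 factor was higher and 1 lower, while 25% of all genes were called. ATF4 was the higher one (0.60, limma adjusted p = 0.00084) and FOXO1 the lower (−0.54, adjusted p = 0.0026), against −0.03 and −0.06 in MDA-MB-468 cells. FOXO1 was near background in MDA-MB-468 cells, at means of 6.93 and 6.86 and detected on 2 siControl arrays and 1 siPRKCD array. A fall there could hardly be read. In BT-549 cells FOXO1 was detected on 3 siControl arrays and 1 siPRKCD array. The difference between the lines passed for ATF4 (0.63, adjusted p = 0.016) and not for FOXO1 (−0.48, adjusted p = 0.077). Of 5 measured genes that act after the membrane opens, CYCS, the gene of cytochrome c, was lower in MDA-MB-468 cells (−0.33, adjusted p = 0.014). It stood at −0.25 in BT-549 cells (adjusted p = 0.058). In MDA-MB-468 cells CYCS was detected on 3 siControl arrays and 1 siPRKCD array, so background limits the size of that fall. APAF1, the scaffold of the apoptosome, was higher in BT-549 cells (0.38, adjusted p = 0.043) and stood at −0.08 in MDA-MB-468 cells. CASP9, DIABLO and HTRA2 were called in neither line. Thus 1 of the 5 was called in each line, against 24.8% and 25% of all genes.

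**Figure D4:**
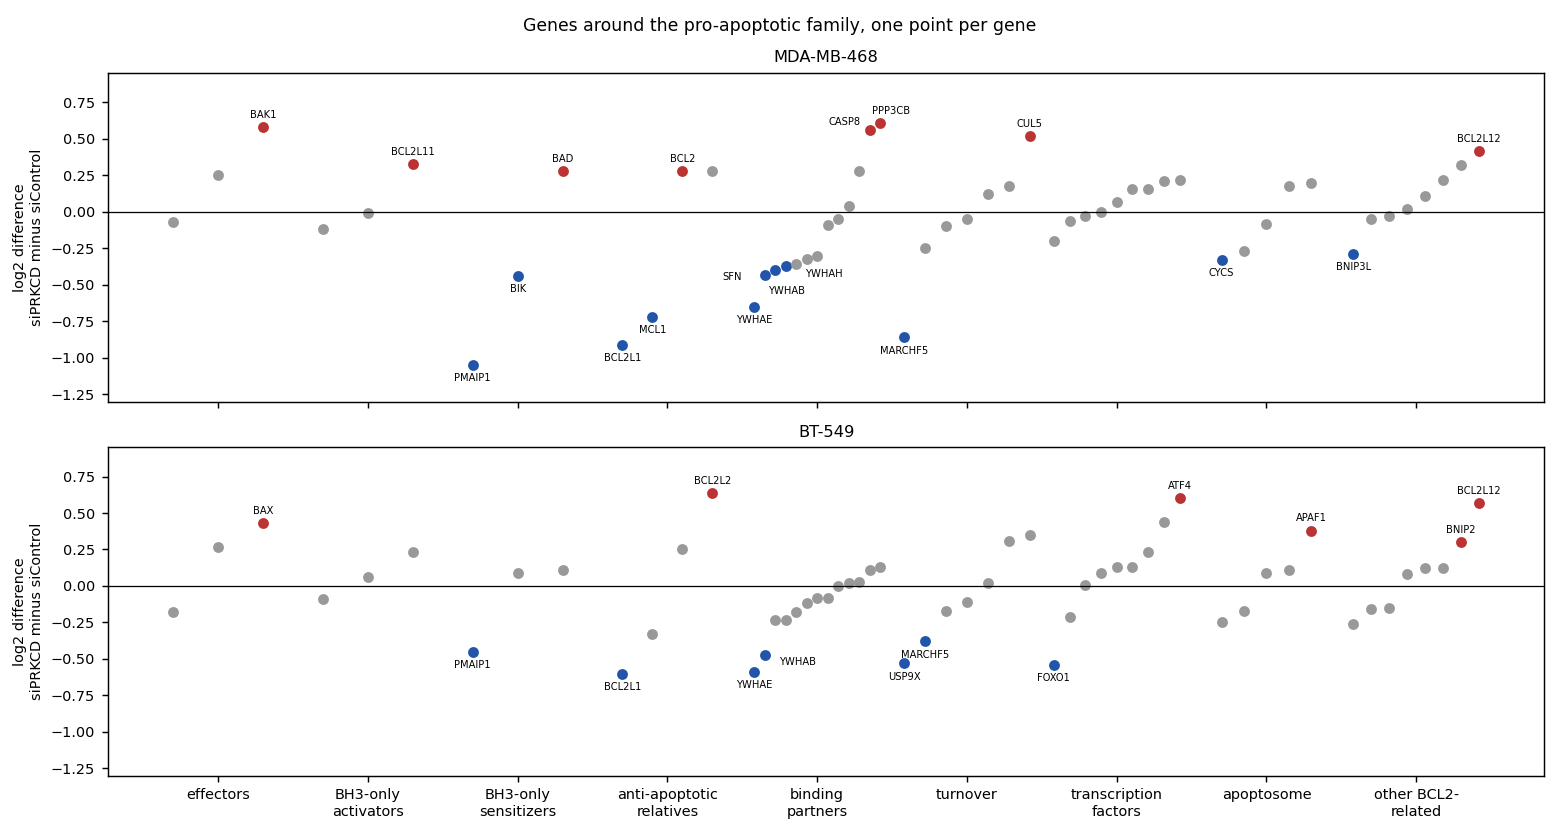
Log2 difference of siPRKCD minus siControl (vertical axis) for the leading probe of each measured gene, 1 point per gene, grouped by role in the pathway, with MDA-MB-468 cells above and BT-549 cells below. Red and blue points, with names, were called higher and lower and grey points were not called. PMAIP1, BCL2L1, YWHAE, YWHAB and MARCHF5 are blue in both panels and BCL2L12 is red in both.

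For the members called in at least 1 line, the genes whose leading probes followed them most closely were sought by Pearson correlation over the 12 arrays after the mean of each line was subtracted, so that the siRNA contrast itself enters the correlation. For PMAIP1 they were MARCHF5 (r = 0.973) and COX7A2 (0.972), for BAD LARP4 (0.977) and CERS2 (0.963), and for BAK1 ZNF473 (0.966) and ABCF2 (0.966). For BAX they were U2SURP (0.962) and DHX35 (0.957), for BCL2L11 BRMS1 (0.95) and TRIM11 (0.937), and for BIK SAA4 (0.932) and PLAU (0.921). The arrays of one siRNA share its effect, and these values describe a likeness of pattern in these 12 arrays.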

How the data were processed

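Total RNA of 12 cultures was hybridized to Illumina HT-12 v4 arrays, and groups were taken from the labels. The authors deposited unnormalized bead signal intensities, a detection p-value per probe and array, and a table of normalized intensities on a linear scale. The scanner software is not given in the sources used here. From the unnormalized table, all arrays were quantile-normalized together for this work and moved to log2, which differed from the authors' table by at most 0.00827. The lowest signal was 66.24. Probe annotation gave 1 gene symbol for 30113 of 47323 probes, several for 8 and none for 17202. Some genes of the pathway lists were not analysed here.

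Probes detected at p under 0.01 on at least 3 of 12 arrays were kept, 19439 probes with 11459 genes. A single limma model (limma 3.58.1 in R 4.3.3) gave each of the 4 groups its own mean, with 8 residual and 6.62 prior degrees of freedom, and with Benjamini-Hochberg adjustment over all kept probes at 0.05. For a group with no array detected, the bound took the higher of the probe's own signal and the lowest detected signal of each array, over all probes. The fit was tested on simulated data. The members and the gene lists were chosen with earlier results of these data known. Named genes were PRKCD, all members, all anti-apoptotic relatives, of each other list up to 4 genes a line by smallest adjusted p, and the 2 closest genes by correlation for each called member. Further list genes are named to account for a count or a known role and were picked after their values were seen.

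The study describes the replicates as separate experiments, and what was separate between them is not given in the sources used here. Each p-value rests on the spread between these arrays, whose number limits the precision. An exact permutation test of 3 against 3 cannot go below 0.1. Replicate numbers were checked for pairing from the labels by correlating deviations of same-numbered arrays from their group means. In MDA-MB-468 cells the 3 correlations between siControl and siPRKCD were 0.382, 0.325 and 0.539, against −0.424 to 0.225 for arrays of different number. These numbers were taken as pairs. Between the siControl arrays of the lines the same-numbered values were 0.136, 0.137 and 0.208, against −0.212 to 0.137, so pairs across the lines are not clear. Between siControl and siPRKCD in BT-549 cells they were 0.296, −0.036 and 0.071, against −0.371 to 0.246, so these arrays share only a number. The main model used no pairs, and the replicate block was fitted in both lines. The alternatives were other scalings, background corrections, filters, priors and sample sets, the replicate block and leaving out each array. Promoter windows came from RefSeq (GRCh38.p14), 15 windows of 9 members.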

Additional observations from a re-analysis of the deposited data

Results flagged for a closer look

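The second PMAIP1 probe drew attention because the effect of PKCδ siRNA on it differed between the lines in the test of the interaction itself. The effect in BT-549 cells minus that in MDA-MB-468 cells was 0.66 on the log2 scale (SE 0.18, limma adjusted p = 0.036). All 3 MDA-MB-468 siPRKCD arrays lay below the 3 siControl arrays, while the BT-549 arrays overlapped. The probe was detected on all 12 arrays, but it was dim in BT-549 cells. Its siControl mean was 7.21 there and 7.71 in MDA-MB-468 cells. The lowest detected signals of the BT-549 siPRKCD arrays were 6.92 to 6.99, so background limits how far it could fall. The part of this limit in the difference was not tested. Under median centring the adjusted p was 0.11, with no filter on dim probes 0.061, and over the 12 fits without 1 array it ran from 0.016 to 0.095 while the difference ran from 0.49 to 0.78. In 9 of these 12 fits the call was lost.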

How the results depend on the processing

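The counts of called member probes in MDA-MB-468 cells, in BT-549 cells, in the interaction and between the siControl groups were 7, 2, 1 and 7, and those of all probes 4207, 4184, 1477 and 10874. Median centring called 2093 probes in MDA-MB-468 cells, 2350 in BT-549 cells (566 higher and 1784 lower, against 1973 and 2211) and 642 in the interaction, with 0 member probes in BT-549 cells and 0 in the interaction. With no filter 0 member probes were called in BT-549 cells and 0 in the interaction. With probes detected on all 12 arrays, which left 8 member probes and 12335 in all, 3 member probes were called in MDA-MB-468 cells, 4 between the siControl groups and 7054 of all probes there, and 688 in the interaction. With 1 probe per gene, 4 of 9 members and 7138 genes were called between the siControl groups. An intensity trend called 2 member probes in the interaction. With the replicate block 3 member probes and 2422 probes in all were called in the interaction, BAK1 was added in BT-549 cells, and the block changed no other call of a member probe. Leaving out 1 array gave 5 to 7, 0 to 3, 0 to 3 and 7 to 8 member probes, and 2924 to 4435, 2750 to 4523, 1023 to 1501 and 9837 to 11113 of all probes. For single member probes 1282 of 1343 alternative values kept their side of the threshold, 43 lost it and 18 passed it. Most of these values belong to tests without a call in the main fit, which had no call to lose. The 43 losses fell on few calls. They were the leading probes of BAX and PMAIP1 in BT-549 cells and of BAD and BCL2L11 in MDA-MB-468 cells. The last was the second PMAIP1 probe in the interaction. In 23 of the 1343 values the sign changed, each past the threshold in neither setting. The cause was not tested. Dim probes limit BIK, BMF, BCL2L11 and the second probes of BAX and PMAIP1, whose signals lay near or below background in at least 1 group. Among the other named genes the same holds for FOXO1 and CYCS.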
